A study of Mus musculus with 37 samples.

Results

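Cells that carry transcripts of the Ugt1a locus were examined among mouse embryonic fibroblasts (MEFs) profiled by Drop-seq, a droplet method that counts 3′ RNA ends per cell with unique molecular identifiers (UMIs). A cell was included when it held at least 2 UMIs of Ugt1a1, and 232 of 8565 cells did so (2.71%, exact 95% binomial interval 2.38% to 3.07%). They were set against cells with 0 UMIs of Ugt1a1 from the same library and of similar total count, called matched cells below. All cells came from ICR-strain MEFs infected with 1 retroviral pool of 48 factors, mostly cardiac transcription factors, chromatin regulators and microRNA genes, and taken 7 days later. The labels give 37 technical replicates of 1 biological replicate and no uninfected culture, so every p-value below measures the spread between libraries of a single culture. Whether infection or any factor altered Ugt1a expression cannot be told apart from the state of the cells before it, because all of them received the pool.

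The Ugt1a genes encode UDP-glucuronosyltransferases, enzymes of the endoplasmic reticulum that attach glucuronic acid to bilirubin, hormones, drugs and phenols so that these can be excreted. They are best known from liver, intestine and kidney. In the mouse the locus is a single cluster in which alternative first exons, each with its own promoter, are spliced to a shared set of downstream exons. Xenobiotic sensors such as AHR, the aryl hydrocarbon receptor, and NRF2 (Nfe2l2), which drives antioxidant genes, are known to induce members of the cluster.

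The locus lies on the plus strand of mouse chromosome 1 (GRCm38, the build also called mm10), where 9 genes with separate first exons share exons from position 88215044 onward. The sequences below, read from GENCODE transcripts, run across the junction of exon 1 and exon 2. They are shown because the 9 transcripts share sequence from the capitals onward, which are the start of the shared second exon. Lower case is the end of each gene's own first exon. The printed ends are the same in Ugt1a2 and Ugt1a5, and in Ugt1a6a and Ugt1a6b, so they do not separate the genes within these pairs.
Ugt1a1: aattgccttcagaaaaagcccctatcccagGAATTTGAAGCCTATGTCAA
Ugt1a2: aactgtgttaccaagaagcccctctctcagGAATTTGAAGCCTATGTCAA
Ugt1a5: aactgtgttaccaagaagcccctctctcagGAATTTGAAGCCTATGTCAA
Ugt1a6a: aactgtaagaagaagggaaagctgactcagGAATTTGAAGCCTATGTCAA
Ugt1a6b: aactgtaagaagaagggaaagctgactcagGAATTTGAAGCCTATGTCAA
Ugt1a7c: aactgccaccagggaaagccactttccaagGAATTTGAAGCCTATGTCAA
Ugt1a8: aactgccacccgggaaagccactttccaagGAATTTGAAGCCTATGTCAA
Ugt1a9: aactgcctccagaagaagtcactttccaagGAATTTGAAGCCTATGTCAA
Ugt1a10: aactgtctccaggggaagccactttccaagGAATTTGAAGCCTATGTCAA

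After this junction the 9 transcripts share 1311 bases, and these include the 3′ end at which Drop-seq reads start. Exon 1 of Ugt1a1 spans chr1:88211959-88212871, and that of Ugt1a10, the most distant, chr1:88055411-88056336. The rows of Ugt1a1, Ugt1a2, Ugt1a5 and Ugt1a9 were identical, with 1283 counts each, so a count was entered for every gene whose exons it met. Ugt1a6a and Ugt1a7c held 26 counts more than Ugt1a1, Ugt1a6b 3, Ugt1a8 2 and Ugt1a10 1. Of the additional Ugt1a6a counts, 6 lay in cells with 2 or more UMIs of Ugt1a1, 7 in cells with 1 UMI and 13 in cells with 0. Those of Ugt1a7c were 13 in cells with 2 or more UMIs, 4 in cells with 1 UMI and 9 in cells with 0. Ugt1a7c has an annotated end beyond that of Ugt1a1, at 88220002, and transcripts of both genes overlap, so these counts do not fix which first exon was used. The row named Ugt1a1 is therefore a count of the locus, and the gene in use is not resolved.

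Counts of the locus were sparse. Of the 232 cells, 141 held 2 UMIs, 43 held 3 and 48 held 4 or more, with 31 in the highest cell. Just below the threshold, 521 cells held 1 UMI and 7812 held none. The 232 cells carried 762 of the 1283 Ugt1a1 counts (59.4%), and their median level was 106 CPM, the count scaled to the cell's total (range 12.9 to 1709). The 141 cells just inside the threshold had a median of 84.1 CPM, and the 521 cells just outside it 75.6 CPM. These values describe the selection and carry no test.

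**Figure D1:**
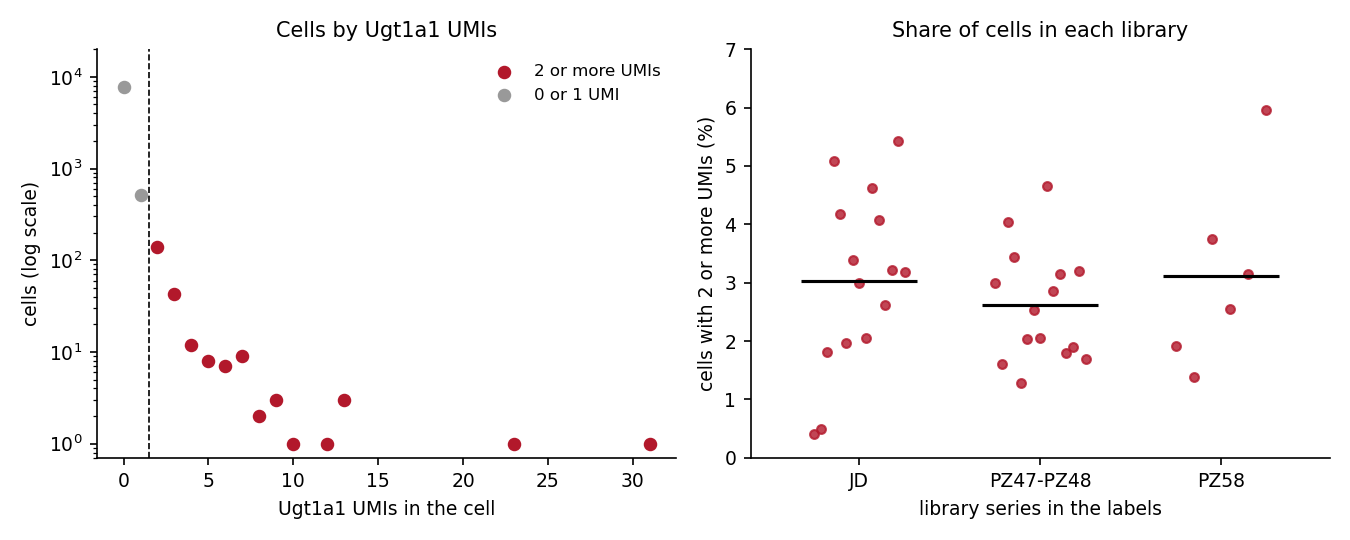
Left, number of cells (log scale) at each number of Ugt1a1 UMIs per cell, with the dashed line at the threshold; 141 cells held 2 UMIs and 1 cell held 31. Right, percentage of cells with at least 2 UMIs in each of 36 libraries, by the library series named in the labels, with the mean as a bar; the libraries spread from 0.402% to 5.96% within and between series.

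Selection followed depth. With the cells divided by total count into 4 groups of equal size, 7 cells passed the threshold in the shallowest group (0.327%), 23 in the next (1.07%), 40 in the third (1.87%) and 162 in the deepest (7.57%). Pooled Ugt1a1 levels showed no such gradient, at 9.16, 10.6, 9.68 and 11.3 CPM in the same order. The median total was 8154.5 counts in cells with 0 UMIs, 13233 in cells with 1 and 24335 in the 232 cells. When each cell was thinned to 5000 UMIs, 46 of 6742 cells kept 2 or more Ugt1a1 UMIs (0.682%), and 55.8% of the selected cells kept at least 1. A cell with 0 UMIs is thus not shown to lack the transcript, and the matched cells may hold cells that express it.

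The selected cells came from every library. Their share was 3.00% in the libraries named JD (99 of 3296 cells), 2.47% in PZ47 and PZ48 (93 of 3767) and 2.66% in PZ58 (40 of 1502). Over the 36 libraries it averaged 2.88% ± 1.31 (SD), with a median of 2.93%. The library formed by technical replicates 4 and 6, which shared 59 barcodes and were joined, gave 19 of the cells, the largest number from 1 library.

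The comparison with matched cells used 216 of the 232 cells, from 33 libraries with at least 3 of them, and 619 matched cells. Their median totals were 23374.5 and 22310 counts. Counts were summed per library and group and tested gene by gene with edgeR's quasi-likelihood test, with the library as a block and Benjamini-Hochberg adjustment over 14391 genes. At an adjusted p under 0.05, 88 genes were higher in the cells with Ugt1a1 (0.611% of those tested) and 391 lower (2.72%). With a single matched cell per selected cell the split was 157 higher (1.17% of those tested) and 227 lower (1.69%). With another scaling (RLE size factors) it was 133 higher (0.924%) and 243 lower (1.69%). Lower genes outnumbered higher ones in each, but the size of the excess depended on these choices. In simulated counts with up to 3 matched cells, 21 of the unchanged genes were called lower and 1 higher; no unchanged gene was called with 1 matched cell.

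Identity was examined first. Summed per library, both groups carried fibroblast markers: Col1a1 had a median of 3370 CPM over libraries in cells with Ugt1a1 and 4036 CPM in matched cells, and Col1a2 had 4192 and 4122 CPM. The summed level of 25 fibroblast genes was 15237 to 31266 CPM in cells with Ugt1a1 and 15656 to 25019 CPM in matched cells. Hepatocyte markers were absent or near absent: 11 of 16 genes, Hnf4a, Afp and Ttr among them, had no count in the 216 cells, and their summed level had a median of 0 CPM against 3.94 CPM in matched cells. Of 14 intestinal genes 4 were at 0, including Cdx2, and the summed medians were 6.07 and 8.66 CPM in the same order. Of 12 kidney genes 5 were at 0, and the summed medians were 29.1 and 28.7 CPM. Of 13 other UDP-glucuronosyltransferase genes, 9 had no count in the selected cells and none reached the 20 counts needed for a test. The label's second gene, Fam180a, which codes for a protein of unknown function, was detected in 27.3% of the cells with Ugt1a1 and 15.2% of matched cells.

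Fam180a ranged from 0 to 329 CPM (median 26.5) over libraries in cells with Ugt1a1 and from 0 to 71.9 CPM (median 14.2) in matched cells. It was higher in 23 of 33 libraries, although the groups overlapped (log2 fold change 1.35 ± 0.28 SE, edgeR adjusted p = 0.00157). Fam180a was named in the label with Ugt1a1 from earlier results of these same data. Its p-value is therefore a description and no independent support. One cell held 24.2% of its counts in the selected group. In cells with exactly 1 UMI of Ugt1a1 Fam180a did not pass the test, with a log2 fold change of -0.42 (adjusted p = 0.586). Its pooled level was 16.8 CPM in matched cells, 11.4 CPM in cells with 1 UMI, 25.0 CPM with 2, 98.3 CPM with 3 and 55.7 CPM with 4 or more. The level of Fam180a above that of matched cells was thus seen from 2 UMIs upward, and it was not highest in the cells with the most Ugt1a1.

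Cells carrying markers of other lineages held Ugt1a1 at unequal rates. A cell was put in a class when it held at least 3 of a short list of defining markers of that lineage. Of 39 cells with macrophage markers such as C1qa, Csf1r and Tyrobp, 11 had at least 2 UMIs of Ugt1a1 (28.2%, exact 95% interval 15.0% to 44.9%). Of 231 cells with mesothelial markers such as Msln, Upk3b and Lrrn4, 27 did (11.7%, 7.85% to 16.5%). Cells with skeletal muscle markers stood at 3.37% (11 of 326, 1.70% to 5.96%), those with glial markers at 3.61% (3 of 83, 0.752% to 10.2%), and the 7908 cells in none of these classes at 2.36% (2.04% to 2.72%).

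Depth did not order these classes: the median total was 8354 counts in cells with macrophage markers, 10766 with mesothelial markers, 12017.5 with skeletal muscle markers and 8447 in the remaining cells. Pooled Ugt1a1 was 72.9 CPM in the macrophage class and 25.7 CPM in the mesothelial class, against 12.9 CPM in the glial class, 5.57 CPM in the skeletal muscle class and 9.95 CPM in the remaining cells. The 11 cells with macrophage markers came from 10 libraries and the 27 with mesothelial markers from 18. The cell with the most Ugt1a1, 31 UMIs, carried macrophage markers and held 45.6% of the Ugt1a1 counts of its class. Without it the macrophage class stood at 41.8 CPM, an alternative chosen after seeing the data, and without its own highest cell the mesothelial class stood at 24.2 CPM. Intervals cover counting error only, and reads of free RNA cannot be separated from a cell's own. At least 1 UMI was seen in 8.18% of the remaining cells. That lies within the interval for cells with skeletal muscle markers (7.98%, 5.28% to 11.5%). The remaining cells include 187 of the selected cells, so their rate does not measure free RNA.

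**Figure D2:**
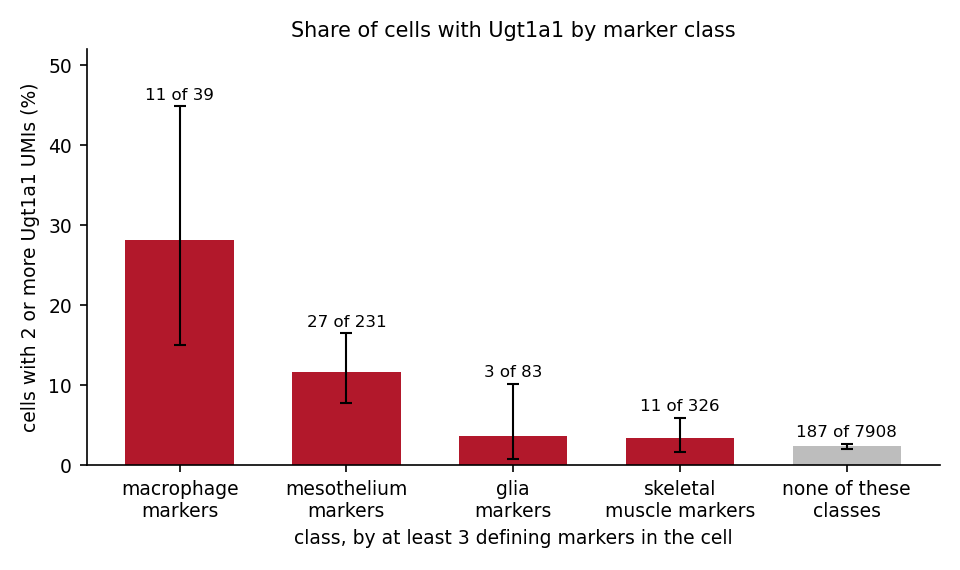
Percentage of cells with at least 2 Ugt1a1 UMIs in cells with at least 3 defining markers of each class and in cells of none; bars are shares, whiskers exact 95% binomial intervals, and labels the number of cells. The macrophage class (28.2%) and the mesothelial class (11.7%) lie above the 2.36% of the remaining cells, with intervals that do not meet it.

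Most of the selected cells nevertheless carried no such markers. Of the 216 cells compared, 81.5% were in none of the classes, against 90.3% of matched cells. Cells with macrophage markers made up 4.63% of the cells with Ugt1a1 and 0.808% of matched cells, and cells with mesothelial markers 10.6% and 2.42%. Cells with skeletal muscle markers made up 3.70% and 6.14%. The comparison was therefore repeated without the cells of these classes, which left 168 cells with Ugt1a1 and 475 matched cells in 29 libraries; there 28 genes were higher (0.204%) and 241 lower (1.75%). Of the 88 genes higher in the full comparison 23 kept the call in that fit (26.1%), and of the 391 lower genes 191 did (48.8%). Only some of the lost calls are named below, and the part of the other lineages in them was not tested further.

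A test of the difference between library series, PZ minus JD, found 1 gene whose effect differed, Krt8 (0.00695% of 14391 genes).

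A minority of antioxidant genes, 6 of 32 tested, were higher in cells with Ugt1a1, beside 0.611% of all genes tested. NRF2 is a transcription factor held in the cytoplasm by KEAP1 and released by electrophiles and oxidants, after which it activates genes of glutathione use, quinone reduction and iron and heme handling. The 32 are a list of known NRF2 targets, of which Nqo1, Mgst1, Hmox1, Gsta4, Gclm and Fth1 were higher at an adjusted p under 0.05, 26 did not pass the test and none was lower. The fold change was above 0 in 26 of the 32, and the list's median log2 fold change was 0.36 beside -0.05 over all genes tested. With 1 matched cell per selected cell 8 were higher and none lower, and without the cells of other classes 4 were higher and none lower. With both changes together 2 of 30 tested were higher, Mgst1 and Hmox1. DESeq2 called 11 higher and none lower.

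Hmox1, heme oxygenase 1, which opens heme to biliverdin on the way to the bilirubin that UGT1A1 conjugates, ranged from 32.8 to 628 CPM (median 128) over 33 libraries in cells with Ugt1a1 and from 41.9 to 242 CPM (median 71.1) in matched cells. It was higher in 30 of 33 libraries (log2 fold change 0.80 ± 0.14 SE, edgeR adjusted p = 9.98e-05). At least 1 count was found in 77.3% of the cells with Ugt1a1 and 64.3% of matched cells. It kept its call without the cells of other classes (0.71). Within the library series its log2 fold change was 0.82 in JD, 0.74 in PZ47 and PZ48 and 0.81 in PZ58. In a separate list of heme and bilirubin metabolism none of 11 tested genes passed the test. The median log2 fold change of that list was -0.06 beside -0.05 over all genes.

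Mgst1, a membrane-bound glutathione transferase, ranged from 46.9 to 461 CPM (median 186) in cells with Ugt1a1 and from 48.7 to 304 CPM (median 82.5) in matched cells. It was higher in 29 of 33 libraries (log2 fold change 0.96 ± 0.13 SE, edgeR adjusted p = 6.22e-07), the smallest adjusted p of the list. Nqo1, the quinone reductase most used as a readout of NRF2, was scarcer, with 0 to 146 CPM (median 27.1) in cells with Ugt1a1 and 3.03 to 34.5 CPM (median 11.4) in matched cells. It was higher in 22 of 33 libraries (log2 fold change 1.09 ± 0.26 SE, adjusted p = 0.00949), with overlap between the groups. Both kept an adjusted p under 0.05 without the cells of other classes (0.85 for Mgst1 and 1.05 for Nqo1 on the log2 scale).

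Gsta4, the glutathione transferase that takes up lipid aldehydes, had a median of 88.0 CPM in cells with Ugt1a1 and 51.2 CPM in matched cells (log2 fold change 0.72 ± 0.21 SE, adjusted p = 0.0374). Gclm, the modifier subunit of glutathione synthesis, had medians of 88.5 and 63.7 CPM in the same order (0.45 ± 0.13 SE, adjusted p = 0.0351), while the catalytic subunit Gclc did not pass the test (0.15, adjusted p = 0.842). Fth1, the heavy chain of the iron store ferritin, had medians of 2208 and 1800 CPM (0.41 ± 0.09 SE, adjusted p = 0.00477). Without the cells of other classes Gsta4 and Gclm lost the call, with adjusted p of 0.191 and 0.264. Srxn1 (0.58, adjusted p = 0.0619), Txnrd1 (0.14, 0.672) and Slc7a11 (0.68, 0.534) did not pass the test in the full comparison.

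**Figure D3:**
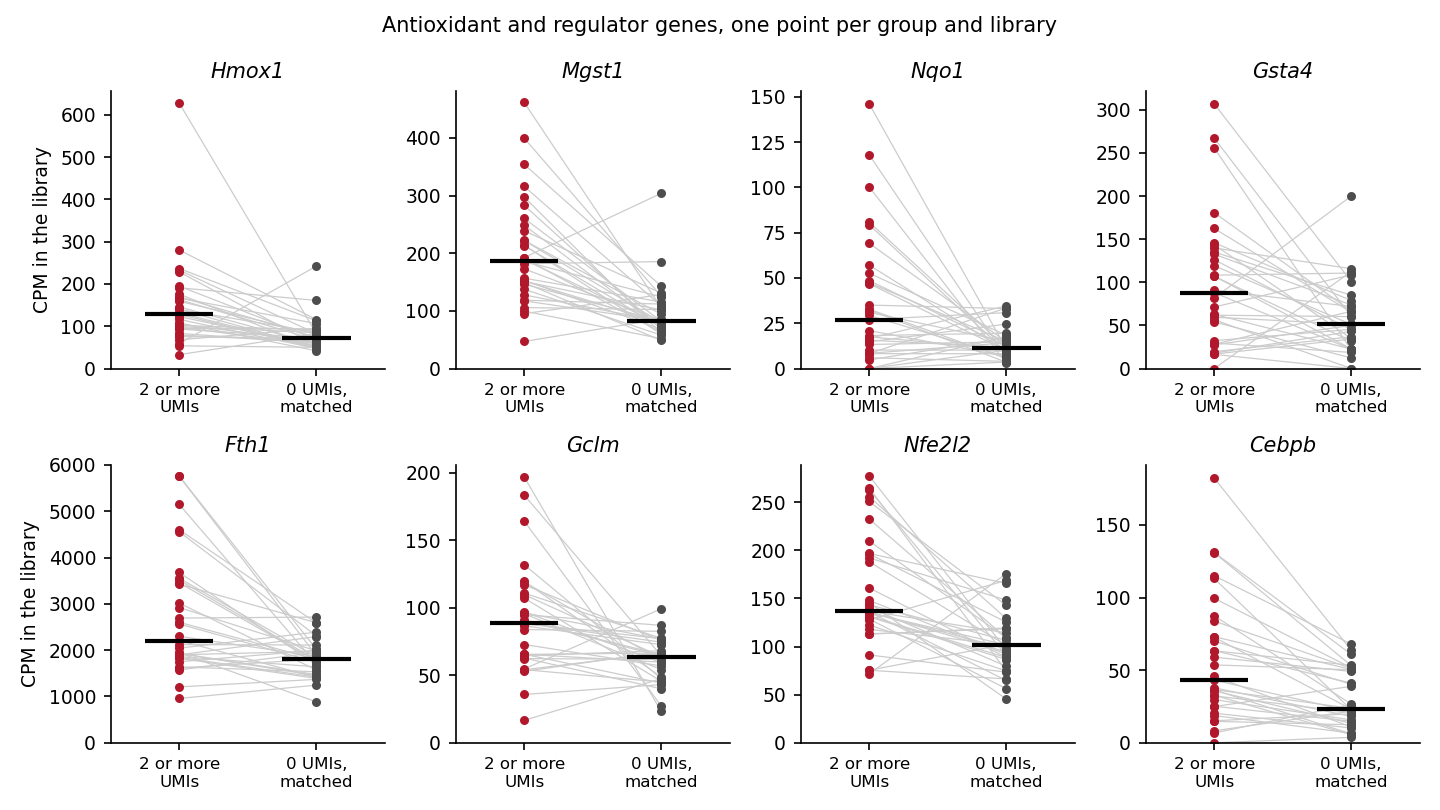
CPM of 6 NRF2 targets and of the regulators Nfe2l2 and Cebpb, one point per library for cells with at least 2 Ugt1a1 UMIs (left, red) and matched cells with 0 (right, grey); lines join the groups of a library and bars are medians over 33 libraries. Most lines fall to the right, in 30 of 33 libraries for Hmox1 and 29 for Mgst1, although the ranges of the groups overlap for every gene.

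Known regulators of the locus were compared next. Of 18 tested genes in a list of xenobiotic receptors and regulators, Nfe2l2 and Cebpb were higher and none lower. Over all genes tested 0.611% were higher and 2.72% lower. Nfe2l2, the NRF2 gene itself, ranged from 71.5 to 277 CPM (median 137) in cells with Ugt1a1 and from 45.5 to 176 CPM (median 101) in matched cells, and was higher in 28 of 33 libraries (log2 fold change 0.53 ± 0.10 SE, edgeR adjusted p = 0.000618). Cebpb, a transcription factor of acute-phase and fat-cell genes, had medians of 43.1 and 23.2 CPM in the same order and was also higher in 28 of 33 libraries (0.80 ± 0.14 SE, adjusted p = 0.000167). Both kept their calls without the cells of other classes (0.47 for Nfe2l2 and 0.81 for Cebpb). Keap1, the NRF2 inhibitor, did not pass the test (-0.08, adjusted p = 0.985), nor did the competing repressor Bach1 (-0.02, 0.991).

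Ahr did not pass the test, with 10.4 CPM against 4.98 CPM as medians (log2 fold change 1.05 ± 0.35 SE, adjusted p = 0.0964). Of 4 tested AHR targets 1 was higher, Nqo1, which is also on the NRF2 list. Over all genes tested 0.611% were higher. Cyp1b1, the AHR target with the most counts, had medians of 144 CPM in cells with Ugt1a1 and 123 CPM in matched cells (0.28, adjusted p = 0.531). Cyp1a1, the classical readout of AHR, was too sparse to test. The receptor genes Nr1i2 and Nr1h4 were likewise below the count needed, and Hnf4a had no count in the selected cells.

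Transcripts of genes that handle the co-substrate did not differ detectably, and the supply itself was not measured. None of 13 genes for making, moving or using UDP-glucuronate passed edgeR's test, none had an unadjusted p under 0.05, and DESeq2 called none. Their median log2 fold change was -0.01. Ugdh, the enzyme that oxidises UDP-glucose to UDP-glucuronate, had medians of 139 CPM in cells with Ugt1a1 and 120 CPM in matched cells (0.20 ± 0.11 SE, adjusted p = 0.448). Gusb, the lysosomal enzyme that removes glucuronic acid, had 97.0 and 80.3 CPM (0.20 ± 0.11 SE, adjusted p = 0.429). Of 22 tested phase 1 enzymes 1 was higher, Cyp7b1, an oxysterol hydroxylase, and 1 cell held 65.2% of its counts in the selected group. None was higher without the cells of other classes, while 4 were with 1 matched cell, 3 with RLE factors and 2 by DESeq2. Among all genes tested 0.611% were higher in the full comparison and 0.204% without the cells of other classes. The share was 1.17% with 1 matched cell and 0.924% with RLE factors, and DESeq2 called 158 of 14391 genes higher. None of 15 tested genes in a list of other phase 2 enzymes passed the test, and none of 12 tested drug transporters.

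Promoter windows were searched because NRF2 and AHR bind short motifs, the antioxidant response core TGACNNNGC and the xenobiotic response core GCGTG. RefSeq windows of GRCm38.p6 from 250 bases before to 50 after each gene start were read on both strands. TGACNNNGC occurred in 12.4% of all 32851 windows, in 12 of 69 windows of higher genes (17.4%), in 9 of 37 windows of the NRF2 list (24.3%) and in none of the 8 windows of Ugt1a genes. GCGTG occurred in 32.4% of all windows, in 31 of the 69 windows of higher genes (44.9%), in 20 of the 37 windows of the NRF2 list (54.1%) and in 2 of the 8 windows of Ugt1a genes, those of Ugt1a5 and Ugt1a8. The following matches to TGACNNNGC lie in genes that were higher, on the strand of the gene, with the motif or its reverse complement in capitals; they are descriptions of sequence and not binding sites.
Nfe2l2: cccaccTGACTCCGCcatgcc
Cebpb: ccagcgTGACGCAGCccgttg
Gclm: ccgggcGCACCGTCAactctc
Mgst1: ggcttgGCACGGTCAggaggc

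Windows were available for 60 of the 88 higher genes, and none for Hmox1, Gsta4 and Ugt1a6b, so the search does not cover these. TGACNNNGC was not present in the windows of Nqo1, Fth1, Serpina3n and Fam180a. GCGTG was present in 1 of the 2 windows of Fth1 and not in those of the other 3 genes.

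The 10 genes with the highest fold change that kept their sign in all 3 library series came from varied functions. Serpina3n, a protease inhibitor of the acute phase, ranged from 0 to 120 CPM (median 15.7) in cells with Ugt1a1 and from 0 to 36.0 CPM (median 3.63) in matched cells, and was higher in 22 of 33 libraries (log2 fold change 1.97 ± 0.36 SE, edgeR adjusted p = 0.000242). It was detected in 21.3% of the cells with Ugt1a1 and 7.92% of matched cells and kept its call without the other classes (2.08, adjusted p = 0.00177). Cxcl1, a chemokine for neutrophils, had a log2 fold change of 2.11 (adjusted p = 0.00592), and Car6, a secreted carbonic anhydrase, 1.84 (0.0154). Without the other classes both lost the call, with adjusted p of 0.173 for Cxcl1 and 0.0646 for Car6. Kng1, Sfrp2 and Cyp7b1 were also in this group, but 1 cell held 66.7%, 63.8% and 65.2% of their counts in the selected cells. Without the other classes Sfrp2 and Cyp7b1 lost the call (adjusted p of 0.226 and 0.259).

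Saa3, an acute-phase serum amyloid A gene, had the largest upward fold change of the genes called higher and was singled out after its values were seen, since it lacked a value in 1 of the series. Its log2 fold change was 4.67 ± 0.77 SE (edgeR adjusted p = 0.000228), and it kept its call without the other classes (6.74). DESeq2 did not call it (adjusted p = 0.876). It was detected in 5.09% of the cells with Ugt1a1 and 1.29% of matched cells, and 1 cell held 53.2% of its counts. Levels between libraries ran from 0 to 1858 CPM in cells with Ugt1a1 and from 0 to 13.4 CPM in matched cells, and 24 of 33 libraries had none in the selected cells.

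Of 16 tested mesothelial genes 3 passed the test upward and none downward, beside the larger share of cells with those markers, and the list's median log2 fold change was 0.61. Among all genes tested 0.611% passed it upward. Upk1b, a uroplakin of mesothelial membranes, had medians of 16.4 and 1.93 CPM in cells with Ugt1a1 and in matched cells (2.10 ± 0.49 SE, adjusted p = 0.00725). Msln, mesothelin, had 54.1 and 8.66 CPM (1.59 ± 0.40 SE, adjusted p = 0.0119), and Bnc1, a transcription factor of mesothelium, 9.82 and 0 CPM (1.98 ± 0.40 SE, adjusted p = 0.00167). None of 11 tested genes passed the test without the cells of other classes. That fit removes cells with at least 3 mesothelial markers from both groups, so it is no separate test of these genes. The summed list ran from 58.1 to 4049 CPM in cells with Ugt1a1 and from 187 to 1460 CPM in matched cells, and Clic3 was at 0 in the selected cells.

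Of 14 tested macrophage genes 1 was higher, Ctss, a lysosomal protease (log2 fold change 2.83 ± 0.72 SE, adjusted p = 0.0221), and 13 had a fold change above 0. The share higher over all genes tested was 0.611%. DESeq2 called none of the macrophage genes. Their sum ran from 16.4 to 4585 CPM in cells with Ugt1a1 and from 13.3 to 415 CPM in matched cells, with no marker at 0. Without the cells of other classes 4 of the genes could be tested and none passed, as that fit removes cells with macrophage markers from both groups.

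Fibroblast genes were divided. Of 25 tested, Dcn, Col3a1 and Ly6a were higher and Vim and Lox lower, beside 0.611% higher and 2.72% lower over all genes. Dcn, decorin, a matrix proteoglycan, ranged from 73.8 to 1147 CPM (median 474) in cells with Ugt1a1 and from 11.0 to 737 CPM (median 213) in matched cells, and was higher in 27 of 33 libraries (1.19 ± 0.23 SE, adjusted p = 0.000901). Col3a1, fibrillar collagen, had medians of 1536 and 1018 CPM and was higher in 29 of 33 libraries (0.58 ± 0.12 SE, adjusted p = 0.000949). Lox, which cross-links collagen, had medians of 1535 and 1873 CPM (-0.39 ± 0.11 SE, adjusted p = 0.0377). Without the cells of other classes Dcn, Vim and Lox kept their calls, while Col3a1 and Ly6a did not pass (adjusted p of 0.193 and 0.0951).

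Contractile genes were lower in cells with Ugt1a1. Of 14 tested smooth muscle genes 11 were lower and none higher, with a median log2 fold change of -1.24. Among all genes tested 2.72% were lower. Acta2, smooth muscle actin, ranged from 203 to 5433 CPM (median 2699) in cells with Ugt1a1 and from 2444 to 8098 CPM (median 5495) in matched cells, and was lower in 31 of 33 libraries (log2 fold change -1.24 ± 0.16 SE, edgeR adjusted p = 6.17e-07). Tagln, an actin-binding protein of the same cells, had medians of 1129 and 1967 CPM and was lower in 29 of 33 (-0.94 ± 0.12 SE), and Myh11, smooth muscle myosin, had 6.07 and 112 CPM and was lower in 28 of 33 (-3.06 ± 0.31 SE). With 1 matched cell per selected cell 11 of these genes were lower as well, and without the cells of other classes 10 were.

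Skeletal muscle genes were lower in the full comparison, in 22 of 23 tested beside 2.72% of all genes, with a median of -3.09. Myh3, embryonic myosin, had a log2 fold change of -5.35 and Myog, a myogenic regulator, -4.19. Myog was found in 4.17% of the cells with Ugt1a1 and 4.68% of matched cells, with 9 counts over the 216 cells against 526 over the 619 matched cells. DESeq2 called 6 of the skeletal muscle genes lower. Without the cells of other classes 16 of the genes could be tested and none passed, as that fit removes muscle cells from both groups. Their summed level ran from 64.6 to 2933 CPM in cells with Ugt1a1 and from 73.4 to 5832 CPM in matched cells, and Myf5, Myf6 and Pax7 were at 0 in the selected cells. A cardiomyocyte list, which shares genes such as Myh7 and Casq2 with the skeletal one, was also lower. Of its 19 tested genes 14 were lower and none higher (median -2.07), and DESeq2 called 7 lower. Without the cells of other classes 2 of 13 were lower.

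**Figure D4:**
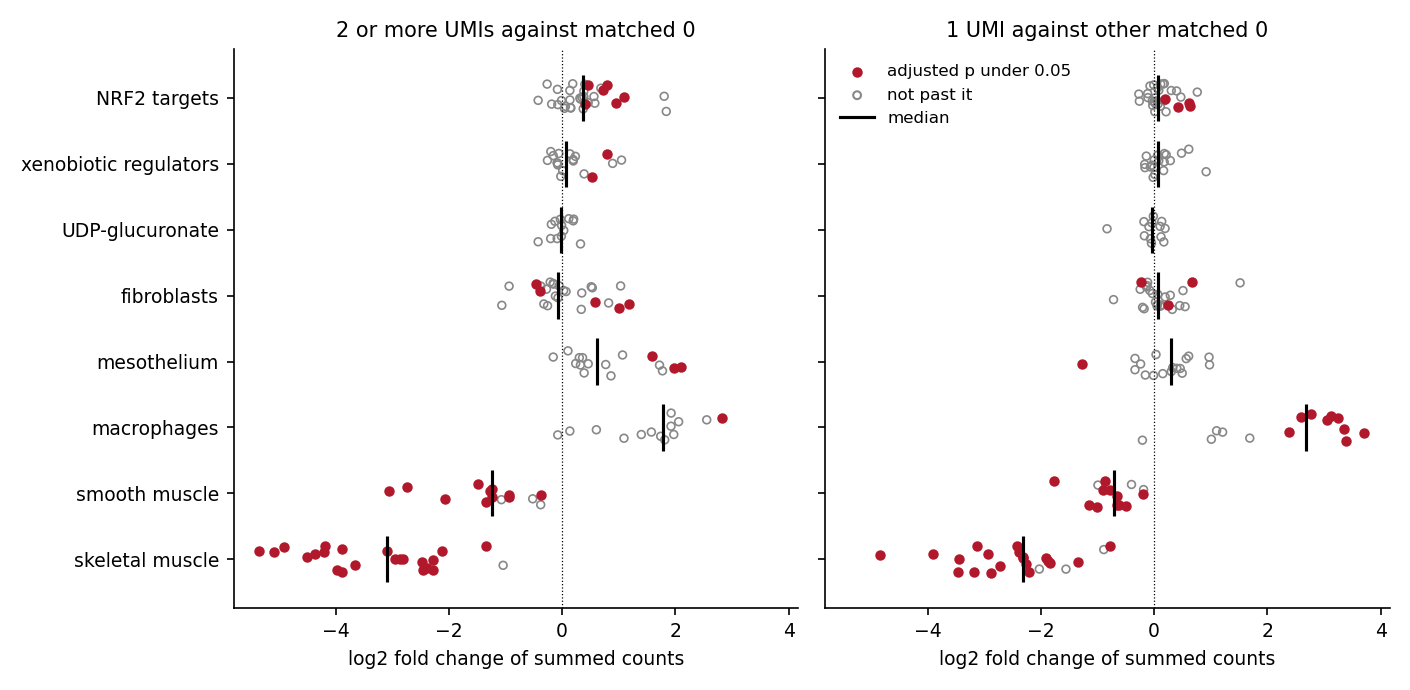
Log2 fold change of each tested gene of 8 lists in cells with at least 2 UMIs of Ugt1a1 against matched cells (left) and in cells with 1 UMI against other matched cells (right); filled points passed an adjusted p of 0.05 and black lines are list medians. Smooth and skeletal muscle genes lie left of 0 in both panels, macrophage genes lie right of it apart from Csf1r (-0.08 and -0.20), and NRF2 targets have a median of 0.36 on the left and 0.07 on the right.

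Factors of the pool were compared because every cell could carry several. Of 41 tested, 1 was higher and 2 lower, against 0.611% and 2.72% of all genes tested, so counts this small set nothing apart in the pool. Gata6, a cardiac and endodermal GATA factor, was higher, with medians of 75.5 and 39.4 CPM in cells with Ugt1a1 and in matched cells (log2 fold change 0.89 ± 0.23 SE, edgeR adjusted p = 0.0171). Mef2c, a muscle factor, was lower at 21.0 and 34.6 CPM (-1.04 ± 0.21 SE, adjusted p = 0.000861), as was Lbh at 194 and 303 CPM (-0.52 ± 0.12 SE, adjusted p = 0.00492). Without the cells of other classes Gata6 and Mef2c did not pass (adjusted p of 0.102 and 0.858) and Lbh did (-0.63). Counts do not separate a factor's transgene from the cell's own gene.

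The selected cells held slightly more factors, 14.8 ± 2.25 per cell (SD over 33 libraries) against 14.1 ± 2.15 in matched cells, and 21 of 33 libraries showed that direction (two-sided sign-flip permutation test over libraries, p adjusted over 3 cell measures = 0.00777). Factors were counted at full depth, and the selected cells were still deeper after matching, with a mean total of 30530 counts against 28110. The part of depth in this difference was not tested. At 5000 UMIs they had 2597 ± 61.4 genes detected against 2554 ± 43.4, without the Ugt1a rows, and were higher in 25 of 33 libraries (adjusted p = 0.00042 by the same permutation test). The mitochondrial share of counts was 0.536% ± 0.163 against 0.515% ± 0.0968, a difference within the spread between libraries (permutation adjusted p = 0.402).

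Cells just below the threshold gave a second comparison with other cells. The 493 cells with exactly 1 UMI of Ugt1a1 from 34 libraries were set against 1435 further cells with 0 UMIs, none of them used above. The same test covered 14877 genes, and 65 passed it upward (0.437%) and 375 downward (2.52%). Of the 88 genes higher in cells with 2 or more UMIs, 12 were also higher here, which is 13.6% of the 88 and 18.5% of the 65, and 73 of 87 tested had the same sign. Of the 391 lower genes 190 were also lower, 48.6% of the 391 and 50.7% of the 375.

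In the cells with 1 UMI, 4 of 31 tested genes of the NRF2 list were higher, Hmox1 (log2 fold change 0.42), Mgst1 (0.63), Fth1 (0.19) and Gstm1 (0.61), and none was lower. Nqo1 (0.40, edgeR adjusted p = 0.383), Nfe2l2 (0.22, 0.186) and Cebpb (0.29, 0.284) did not pass the test. The list's median was 0.07 beside -0.05 over all genes. Dcn (0.67) and Col3a1 (0.24) were higher, and 11 of 14 smooth muscle genes and 20 of 23 skeletal muscle genes were lower. Of 14 tested macrophage genes 9 were higher, C1qa (3.71), Lyz2 (3.13) and Ctss (3.36) among them. Of 17 tested mesothelial genes none was higher and 1 was lower, Krt8 (-1.28, edgeR adjusted p = 0.0143), with a list median of 0.30. Upk1b (0.46, 0.711), Msln (0.40, 0.664) and Bnc1 (0.97, 0.121) did not pass the test. Over all genes tested in cells with 1 UMI 0.437% were higher and 2.52% lower.

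Levels by number of Ugt1a1 UMIs are given as a description, since the classes differ in depth. Pooled Hmox1 was 83.3 CPM in matched cells with 0 UMIs, 106 CPM in cells with 1, 113 CPM with 2, 195 CPM with 3 and 168.7 CPM with 4 or more. Nqo1 was 14.8, 23.7, 21.4, 26.2 and 60.4 CPM over the same classes. Fth1, at 1838, 2037, 2295, 2425 and 3128 CPM, was higher in each class than in the one before it. Myh11 was 164.7, 88.0, 24.8, 10.2 and 17.1 CPM.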

How the data were processed

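Per the labels, ICR MEFs were infected with retroviruses for a pool of 48 factors and processed by Drop-seq on day 7. The deposited tables hold counts, which the authors made with bcl2fastq 2.17.1.14, STAR 2.5.3a, UMI-tools and featureCounts 1.5.3 on mm10, per the submitters' processing notes; the annotation release and the use of strand are not given in the sources used here. Without strand, reads of overlapping and antisense genes cannot be told apart, and Gm20528 overlaps the Ugt1a locus. The 37 libraries held 8730 barcodes and 121818134 counts. Of barcodes in more than 1 library the deeper copy was kept (89 removed), 76 copies 1 base away were removed, and technical replicates 4 and 6 were joined, which left 8565 cells in 36 libraries of 637680 to 7921171 counts. In 10 libraries Rps27a was at 728 CPM or more, against 15.6 CPM or less in the other 26, a difference between libraries that both groups of a library share. No doublet caller was run.

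Cells with at least 2 UMIs of Ugt1a1 were matched to up to 3 cells with 0 UMIs of the same library, within 1.25-fold of the total, and counts were summed per library and group. Genes with at least 20 counts were tested with edgeR 4.0.16 (glmQLFit, TMM) under R 4.3.3, with the library as a block; both sums of a library share its preparation, which is where the pairing comes from. The 9 Ugt1a rows were left out of the tests, since they chose the cells. Alternatives were DESeq2 1.42.0, other scalings, filters and matchings, each cell thinned to 5000 UMIs, and fits without library series or cells of other classes. Cell measures were tested with 100000 sign flips. In data simulated from these libraries (14376 genes, 50 changed per size), the test found 47 genes made 2-fold higher, 50 made 4-fold higher, 44 made 2-fold lower and 48 made 4-fold lower. With 1 matched cell per selected cell (13490 genes) it found 42, 50, 28 and 47.

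The 10 highest and 10 lowest called genes with the same sign in all library series, up to 3 called genes per list, and all genes of the lists on NRF2, AHR, regulators and UDP-glucuronate could be named. Some of these genes are not reported here. The cells and the lists were chosen with earlier results of these data known. Coordinates and sequences are from GENCODE and RefSeq on GRCm38, and 27645 of 27999 IDs had a symbol.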

Additional observations from a re-analysis of the deposited data

Results flagged for a closer look

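Krt8, a keratin of simple epithelia, was the single gene of all those tested whose difference between cells with Ugt1a1 and matched cells itself differed between library series (edgeR interaction test, PZ minus JD, log2 difference -4.34 ± 0.75 SE, adjusted p = 0.0119). In libraries named PZ, Krt8 was 11.3 CPM in cells with Ugt1a1 and 66.0 CPM in matched cells; in libraries named JD it was 86.7 CPM in cells with Ugt1a1 and 12.2 CPM in matched cells. Single cells held much of these counts: the highest cell had 150 counts among the JD cells with Ugt1a1 and 224 counts among the PZ matched cells.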

How the results depend on the processing

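The direction of the named genes was stable in the alternatives run, while the counts of called genes were not. Over 56 called genes and 1088 combinations with a setting, 1085 kept the direction, 840 also kept the call and 245 lost it. The sign turned for Tnnc2 without cells of other classes (0.35), Tnni1 with that and 1 matched cell (0.27) and Ctss in libraries with many counts of Rps27a (-1.14). The cause was not tested. Genes called in all, higher and lower numbered 479, 88 and 391; the values that moved by over 1.5 times follow. RLE factors gave 133 higher and 243 lower, and DESeq2 158 and 224. No filter gave 758 in all and 186 higher. A single matched cell gave 157 higher and 227 lower, and up to 5 gave 765 in all and 653 lower. Without the replicate block (the library), 225 were higher. Thinning gave 902, 58 and 844, with the median of all genes at -0.25. At 3 or more UMIs, with 66 cells left, they were 217, 32 and 185. Without JD they were 268, 24 and 244; without PZ47 and PZ48, 243, 42 and 201; without PZ58, 48 higher. Libraries rich in Rps27a counts gave 65, 5 and 60, and the others 53 higher. Without cells of other classes they were 269, 28 and 241. Chosen after seeing the data, 1 matched cell without those classes gave 100, 27 and 73, and 1 matched cell with thinning gave 188 in all and 108 lower; without technical replicates 4 and 6 there were 78 higher and 448 lower. For cells with 1 UMI (440, 65 and 375), RLE gave 107 higher and 203 lower, DESeq2 242 in all and 160 lower, no filter 683 in all and 139 higher, 1 matched cell 162 in all and 114 lower, and the fit without other classes 35 higher. The mitochondrial share changed sign with 1 matched cell (-0.00358 percentage points) and at 3 or more UMIs (-0.0288); at 3 or more UMIs the differences in genes (52.1) and factors (0.817) per cell lost the call, with adjusted p of 0.081 and 0.158. Depth limits the selection: at 5000 UMIs, 0.682% of cells kept 2 UMIs of Ugt1a1.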

Other observations

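Genes of glycolysis and the response to low oxygen were lower in part in cells with Ugt1a1. Of 20 tested, Pfkp (log2 fold change -0.48), Adm (-0.96), Ldha (-0.28) and Eno1 (-0.32) were lower and Ddit4 (0.55) higher at an edgeR adjusted p under 0.05, with a list median of -0.25 beside -0.05 over all genes. Over all genes tested 0.611% were higher and 2.72% lower. With 1 matched cell per selected cell 1 gene of the list was lower and 1 higher, and without cells of other classes 3 were lower, without Eno1, and 1 higher. Of 22 tested genes of the G2 and M phases edgeR called none in cells with 2 or more UMIs (median -0.32, 1 lower at an unadjusted p under 0.05 and 1 by DESeq2), and 6 were lower in cells with 1 UMI. Among all genes tested in cells with 1 UMI 2.52% were lower. With 1 matched cell per selected cell the median of the G2 and M phase genes was -0.0027. Of 20 tested p53 targets 2 were higher, Trp53inp1 (0.52) and Mdm2 (0.35), and none lower; neither kept the call without cells of other classes or passed it in cells with 1 UMI. Of 20 interferon genes neither edgeR nor DESeq2 called any, with 6 higher at an unadjusted p under 0.05.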
